A study of Mus musculus with 30 samples.

Results

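Lepr, the gene for the leptin receptor, was followed with Leprot and Leprotl1 through kidney and retina of mice that carry the db mutation of Lepr or do not. The 3 genes were picked by name, as the gene hit by the db mutation, its chromosomal neighbour Leprot and the Leprot paralog Leprotl1, not by a threshold on measured values. They are 3 of the 55385 genes in the deposited tables, and all 3 passed the filter on low counts in both organs. RNA had been sequenced from 16 kidneys and 14 retinas of 21 animals aged 16 weeks, and 9 animals gave both organs. Diabetic groups were Lepr(db/db) and non-diabetic groups Lepr(+/+), and each was either a global knockout of Camk2d (KO), which encodes the delta form of calcium/calmodulin-dependent protein kinase II, or wild-type (WT) for it. Kidney had 4 libraries each of KO diabetic, KO non-diabetic, WT diabetic and WT non-diabetic mice. Retina had 3 KO diabetic, 4 KO non-diabetic, 4 WT diabetic and 3 WT non-diabetic libraries. A library is called K (kidney) or R (retina) followed by the number of its animal. The db mutation is in every cell of the diabetic animals, so the allele and the diabetic state cannot be told apart in these groups. The sources used here name no strain and no litters.

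Leptin is a hormone secreted by fat cells that reports energy stores to the brain and other organs. Its receptor belongs to the class I cytokine receptors, which lack a kinase of their own and signal through the bound kinase JAK2 to STAT transcription factors. Lepr is spliced into isoforms that share the hormone-binding part and differ in their intracellular tails. The long form, Ob-Rb, carries the sites that STAT3 and SHP2 use, and short forms such as Ob-Ra and Ob-Rc lack most of the tail. In the db allele, a base change creates a splice donor that places extra exon sequence into the long transcript and truncates the long form. Leprot (endospanin-1) and Leprotl1 (endospanin-2) encode small membrane proteins of endosomes and the Golgi that hold receptors, among them those for leptin and growth hormone, away from the cell surface in cultured cells.

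The coding ends of the 3 isoforms are shown because they are what distinguishes a full signalling receptor from a short one, and because the gene-level tables cannot separate them. Each line gives the last 24 coding bases common to the isoforms in lower case and then, in capitals, the bases particular to the isoform, 5′ to 3′ on the plus strand of chromosome 4 in GRCm38 (GENCODE M21 transcripts, stop codon left out). The isoforms share 2667 coding bases from the start codon on. Ob-Rb (transcript Lepr-201) goes on to a coding length of 3486 bases, and the first 60 of its own are printed. Past the shared bases, Ob-Ra (Lepr-203) has 15 more and Ob-Rc (Lepr-202) has 9. The printed stretches begin at base 101792047 and end at 101814507 for Ob-Rb, 101811362 for Ob-Ra and 101792079 for Ob-Rc, with an intron removed from the Ob-Rb and Ob-Ra stretches.
Ob-Rb: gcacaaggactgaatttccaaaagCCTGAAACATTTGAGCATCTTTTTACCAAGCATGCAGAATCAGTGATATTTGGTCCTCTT
Ob-Ra: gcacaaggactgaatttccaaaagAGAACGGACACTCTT
Ob-Rc: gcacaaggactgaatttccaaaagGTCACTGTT
The deposited values are sums over all 7 annotated Lepr transcripts, which run from 208 to 5542 bases. A level of Lepr is therefore a level of the gene and not of Ob-Rb.

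Lepr (ENSMUSG00000057722.17) lies at chr4:101717404-101815352 on the plus strand, and Leprot (ENSMUSG00000035212.14) upstream of it on the same strand at chr4:101647718-101659364. In GENCODE M21 the gene models do not overlap: 58039 bases separate the end of Leprot from the start of Lepr. Leprotl1 (ENSMUSG00000031513.8) is on the minus strand of another chromosome, at chr8:34135572-34147033. Leprot and Leprotl1 each have a coding sequence of 393 bases, of which 274 (69.7%) are identical in place. Their last 60 coding bases, bases 334 to 393, are shown because they show how alike the paralogs are (48 of 60 bases identical) and how the differences are spread. The 12 bases that differ are in capitals, 5′ to 3′ on each gene's own strand, at chr4:101657892-101657951 for Leprot and chr8:34137725-34137784 for Leprotl1.
Leprot: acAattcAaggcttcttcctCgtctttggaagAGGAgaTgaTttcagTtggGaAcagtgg
Leprotl1: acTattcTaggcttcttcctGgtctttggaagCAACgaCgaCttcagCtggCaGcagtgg
The longest run shared by the coding sequences at the same place was 12 bases, and no 31-base word of any of the 3 genes occurred in another of them. Words of 31 bases found in no other annotated gene made up 96.1% of those of Lepr and 100% of those of Leprotl1. Counts of the 3 genes were thus separable from each other, while 94 of the 1897 words of Leprot are also in the gene Gm5548 and 101 of the 276 non-unique words of Lepr lie in the long last exon of Lepr-203.

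Totals ran from 19870485 to 22643055 counts per library. Camk2d, the targeted gene, stood at 0.119 to 0.767 CPM (counts scaled to a common library size, normalised over all 30 libraries) in KO kidneys and 13.8 to 27.5 CPM in WT kidneys, and at 2.17 to 2.97 CPM in KO retinas and 199 to 240 CPM in WT retinas, so the genotype labels held in every library. Summed kidney epithelium markers were at 8395 to 20130 CPM in kidneys and 11.7 to 27.1 CPM in retinas, and summed rod markers at 3.61 to 40.6 CPM in kidneys and 31000 to 42650 CPM in retinas. Mitochondrial transcripts took 22.01% to 45.4% of the counts of kidney libraries, most in K591 (KO diabetic, 45.4%) and K861 (WT non-diabetic, 36.4%), and 6.05% to 7.65% in retina. Summed lens markers in retinas ranged from 31.8 to 1017 CPM. Sex was read from Xist and Y-linked transcripts, and every group held females and males. Their numbers were equal in each kidney group and unequal in KO diabetic and WT non-diabetic retinas. The p-values measure the spread between animals, which the labels number separately.

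Lepr fell in diabetic kidneys over both genotypes. KO diabetic kidneys had 1.92, 1.122, 0.920 and 2.08 CPM, against 5.20, 4.62, 3.36 and 4.23 CPM in KO non-diabetic kidneys. WT diabetic kidneys had 1.18, 1.45, 1.83 and 1.51 CPM, against 2.94, 3.48, 5.21 and 2.18 CPM in WT non-diabetic kidneys. All 8 diabetic kidneys lay below all 8 non-diabetic kidneys, with a narrow gap between the highest diabetic library (K596, 2.08 CPM) and the lowest non-diabetic library (K861, 2.18 CPM). Both of these libraries were male. In KO non-diabetic, WT non-diabetic and WT diabetic kidneys every male lay below every female. In KO diabetic kidneys the sexes overlapped. The part of sex in these levels was not tested. Of 18177 genes tested in kidney, 31 (0.171%) had all diabetic libraries below all non-diabetic ones. The mean was 1.5 ± 0.415 CPM in diabetic kidneys and 3.90 ± 1.10 CPM in non-diabetic kidneys (SD, n = 8 each). Averaged over the genotypes, the log2 difference was −1.38 ± 0.22 (SE; 95% confidence interval −1.84 to −0.92; edgeR quasi-likelihood test, Benjamini-Hochberg adjusted p = 0.00264), a 2.61-fold lower level in diabetic kidneys. Lepr was the only member called in this comparison, in which 3.69% of all genes were called and 2.22% were called lower in diabetic kidneys.

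**Figure D1:**
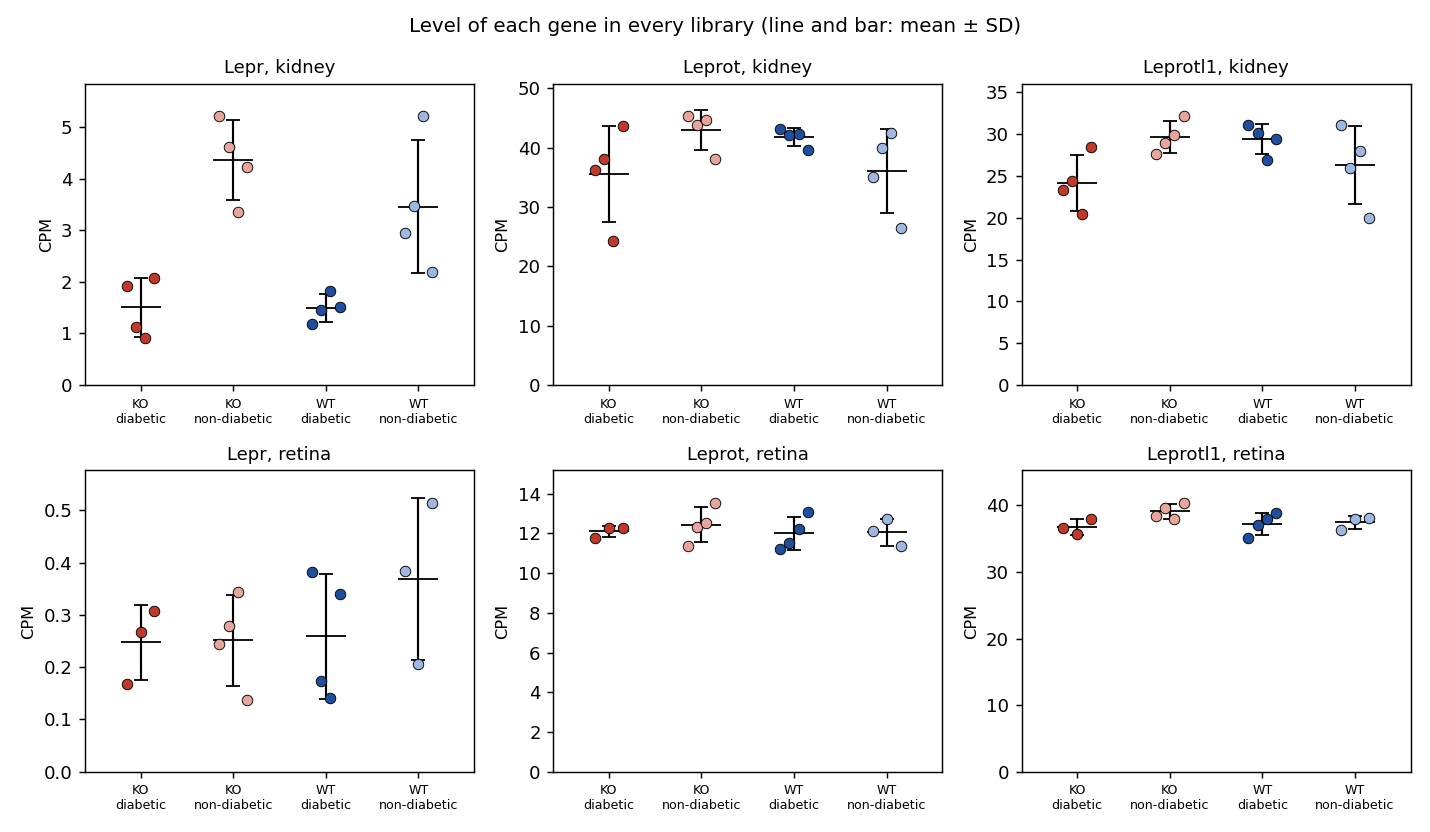
CPM of Lepr, Leprot and Leprotl1 (columns) in every kidney library (top) and retina library (bottom) by group, 1 point per library, with the group mean and SD as a line and bars; each panel has its own vertical axis from 0. In kidney, Lepr is at 0.920 to 2.08 CPM in the diabetic libraries and 2.18 to 5.21 CPM in the non-diabetic ones, while Leprot, Leprotl1 and all 3 genes in retina overlap between the groups.

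Within genotypes the difference was −1.53 ± 0.31 in KO kidneys (edgeR adjusted p = 0.0986, not called) and −1.24 ± 0.31 in WT kidneys (adjusted p = 0.0240, called). In the KO comparison 0.0770% of all genes were called (0.0275% lower in diabetic kidneys), and in the WT comparison 7.29% (4.49% lower). The genotype by diabetes interaction, which tests the difference between the genotypes directly, was −0.29 ± 0.43 (95% confidence interval −1.20 to 0.62, adjusted p = 0.659), and no gene of 18177 (0.00%) was called in it by edgeR, with 5301 at an unadjusted p under 0.05 and 1640 called by DESeq2. The WT call ended without K597, K645, K877 or K834 (difference −1.41 to −0.96 over the libraries left out in turn), with the level of white adipose markers as a covariate (−0.89, adjusted p = 0.250) and with limma on log2(TPM + 1) (−0.39, adjusted p = 0.238). The KO comparison was called without K596 (−1.71, adjusted p = 0.0191), by DESeq2 (−1.53, adjusted p = 0.000997) and with sex as a covariate (−1.51, adjusted p = 0.0364). The averaged call held without each of the 16 libraries in turn (−1.47 to −1.25, edgeR adjusted p 0.00168 to 0.00909) and ended with limma on log2(TPM + 1) (−0.46, adjusted p = 0.0599).

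No difference in Lepr between KO and WT kidneys passed the test. KO minus WT was 0.31 ± 0.29 in non-diabetic kidneys (edgeR, 95% confidence interval −0.31 to 0.93, adjusted p = 0.997, with 0.435% of all genes called) and 0.02 ± 0.31 in diabetic kidneys (−0.64 to 0.68, adjusted p = 0.969, with 19.7% of all genes called). In diabetic kidneys the means were 1.51 ± 0.574 CPM in KO and 1.49 ± 0.268 CPM in WT, and in non-diabetic kidneys 4.35 ± 0.773 CPM in KO and 3.45 ± 1.29 CPM in WT (SD, n = 4 each). These intervals still allow a change of either sign.

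Markers of white fat, a tissue that surrounds the kidney, moved in the same direction as Lepr. The summed level of 9 white adipose markers was 49.0 to 114 CPM in diabetic kidneys and 54.0 to 1842 CPM in non-diabetic kidneys, and none of the 9 was at 0 in every library of a kidney group. Over both genotypes 4 of 9 fell (median log2 difference −3.10, against −0.01 over all genes), beside 3.69% of all genes called. In KO kidneys 0 of 9 was called (median −2.02), beside 0.0770% of all genes called, and Lepr differed by −1.53. In WT kidneys 6 of 9 fell (median −4.31), beside 7.29% of all genes called, and Lepr differed by −1.24. With the adipose level as a covariate the Lepr difference was −1.16 ± 0.29, against −1.38 ± 0.22 without it, and was no longer called (adjusted p = 0.0671). The share of all genes called with this covariate is not given here, so the lost call cannot be set against a loss over all genes. The 3 KO non-diabetic kidneys K560, K582 and K584 had adipose sums of 54.0 to 97.0 CPM, inside the diabetic range, and Lepr levels of 3.36 to 4.62 CPM, above every diabetic kidney. No WT non-diabetic kidney lay inside that range. The lowest of them, K861, had an adipose sum of 128 CPM and the lowest non-diabetic Lepr level, 2.18 CPM. The part of fat in the fall of Lepr was not tested. Without K861 and K591, the libraries richest in mitochondrial counts, the Lepr difference was −1.37 ± 0.20 (adjusted p = 0.00354), and with the mitochondrial share as a covariate −1.26 ± 0.19 (adjusted p = 0.00291).

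**Figure D2:**
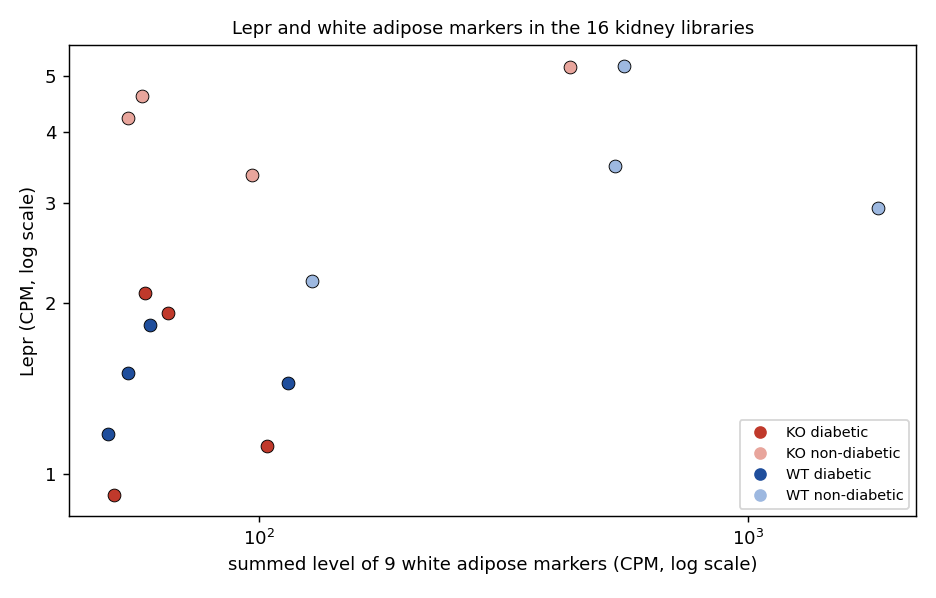
Lepr in CPM against the summed CPM of 9 white adipose markers, both on log axes, 1 point per kidney library, coloured by group. Diabetic kidneys lie at 49.0 to 114 CPM of adipose markers with Lepr under 2.1 CPM, and 3 KO non-diabetic kidneys with like adipose sums have Lepr between 3.36 and 4.62 CPM. The WT non-diabetic kidney with the lowest adipose sum (K861, 128 CPM) has Lepr at 2.18 CPM.

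Other cell types were read through their marker lists for the same comparison, in which 3.69% of all genes were called. Endothelial markers summed to 459 to 788 CPM in diabetic and 391.5 to 657 CPM in non-diabetic kidneys (1 of 10 rose, median log2 difference 0.21), mural and fibroblast markers to 434 ± 135 CPM in diabetic and 385 ± 62.0 CPM in non-diabetic kidneys (SD, n = 8 each; 1 of 14 rose, −0.01), and macrophage markers to 39.6 to 176 CPM in diabetic and 84.6 to 176 CPM in non-diabetic kidneys (1 of 7 fell, −0.30). Kidney epithelium markers summed to 8395 to 20130 CPM in diabetic and 10220 to 13510 CPM in non-diabetic kidneys (2 of 11 rose, 0.01). Of markers listed for cells of the eye, 0 of 5 tested for retinal pigment epithelium, 1 of 5 for Mueller glia (lower), 1 of 4 for rods (higher) and 1 of 3 for lens (lower) were called; the Mueller glia list summed to 750 to 1216 CPM in diabetic and 361 to 1123 CPM in non-diabetic kidneys. The part of these lists in the fall of Lepr was not tested, and in whole organs fewer cells of a type and less RNA per cell cannot be told apart.

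Lepr was near the limit of detection in retina. Its counts were 4.00 to 15.4 per retina library, against 11.1 to 96.1 per kidney library. KO diabetic retinas had 0.168, 0.268 and 0.308 CPM, against 0.245, 0.279, 0.345 and 0.137 CPM in KO non-diabetic retinas. WT diabetic retinas had 0.381, 0.173, 0.140 and 0.341 CPM, against 0.384, 0.206 and 0.515 CPM in WT non-diabetic retinas. The groups overlapped in both genotypes. The diabetic minus non-diabetic difference was −0.25 ± 0.31 (edgeR, 95% confidence interval −0.92 to 0.41, adjusted p = 0.717), an interval that neither excludes 0 nor reaches the kidney estimate of −1.38. Within genotypes it was −0.01 ± 0.46 in KO retinas and −0.50 ± 0.43 in WT retinas. KO minus WT was −0.05 ± 0.45 in diabetic and −0.54 ± 0.43 in non-diabetic retinas, and the interaction was 0.48 ± 0.63. None of the 5 passed (adjusted p 0.568 to 0.997). The share of all genes called in retina was 1.43% for the averaged diabetes comparison (0.834% lower in diabetic retinas), 0.00% in KO retinas (1855 genes at an unadjusted p under 0.05, 80 called by DESeq2) and 2.48% in WT retinas (1.19% lower), 1.78% for KO against WT in diabetic and 1.14% in non-diabetic retinas, and 0.124% for the interaction.

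The difference between the organs in the effect of diabetes on Lepr was −1.11 ± 0.38 (kidney minus retina, edgeR joint fit, 95% confidence interval −1.88 to −0.33). Its unadjusted p was 0.00715 and its adjusted p 0.177, so an organ difference in the effect was not called (1.36% of 23021 genes were). With the animal as a block, over the 9 animals with both organs, it was −1.39 ± 0.49 (adjusted p = 0.213). Lepr was called in kidney and not in retina, and the difference between the organs did not pass the threshold.

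**Figure D3:**
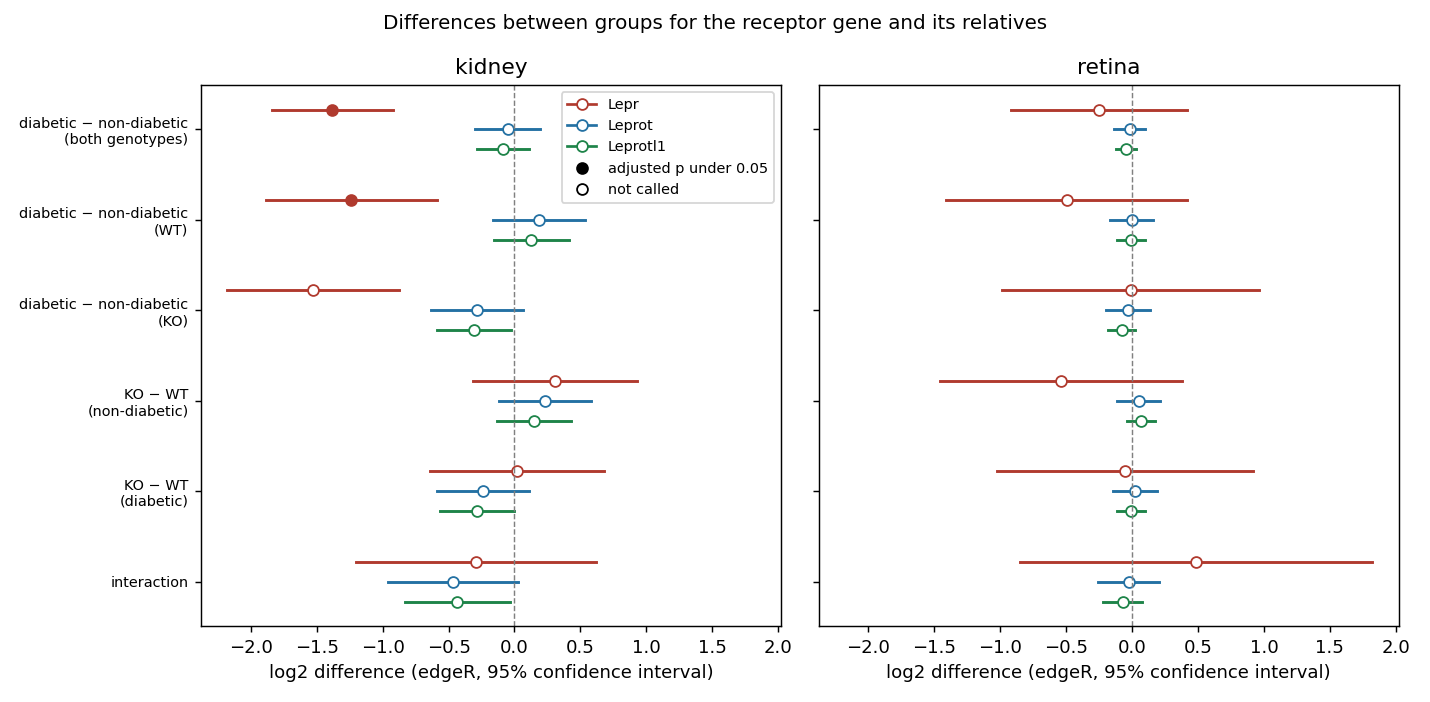
Log2 differences with 95% confidence intervals for Lepr, Leprot and Leprotl1 in the 6 comparisons, kidney on the left and retina on the right; filled points passed an adjusted p of 0.05. Lepr in diabetic against non-diabetic kidneys (−1.38 over both genotypes, −1.24 in WT) holds the only filled points, and the Lepr intervals in retina are several times wider than those of Leprot and Leprotl1.

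The mean effective length of the Lepr transcripts differed between the organs. Dividing counts by TPM, scaled on single-transcript genes, gives a mean effective length weighted by TPM and not by counts. A few counts on a short transcript can lower it strongly, so it does not show where most counts were assigned. The measure was chosen after values had been seen. For Lepr it was 2156 to 5373 bases in kidney libraries (median 4536) and 279 to 5364 bases in retina libraries (median 741). For Leprot it was 1622 to 1729 bases and for Leprotl1 2692 to 2712 bases over all libraries. In 8 of 14 retinas the mean was under 1000 bases, shorter than any annotated Lepr transcript that codes for a whole receptor (3410 to 5542 bases); the other annotated transcripts have 208 to 889 bases. By group, the lengths were 691, 791 and 5364 bases in KO diabetic retinas, 279 and 357 bases for the shortest and a median of 472 bases in KO non-diabetic retinas, 370, 633, 1796 and 4906 bases in WT diabetic retinas, and 2095, 3384 and 3702 bases in WT non-diabetic retinas. Each rests on 4 to 15 counts.

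**Figure D4:**
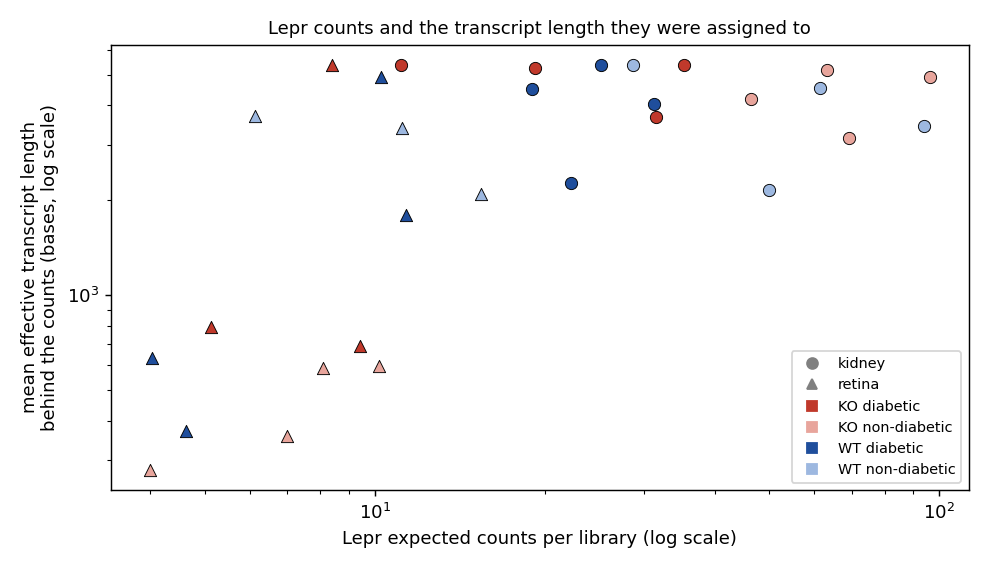
Mean effective transcript length of Lepr, weighted by TPM, against the Lepr expected counts of a library. Both axes are log, with circles for kidney and triangles for retina, coloured by group. Kidney libraries lie at 2156 to 5373 bases and 11.1 to 96.1 counts, and 8 of 14 retina libraries lie under 1000 bases at 4.00 to 10.2 counts.

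TPM, which divides by this length and was not normalised over the libraries as CPM was, set the organs in another order than CPM. Length was not the only difference between the scales. Leprot had the same median effective length in both organs (1716 bases). It averaged 39.1 CPM in kidney and 12.2 CPM in retina, but 16.1 and 16.5 TPM. Lepr averaged 2.70 ± 1.48 CPM in kidney and 0.278 ± 0.109 CPM in retina, but 0.498 ± 0.348 TPM in kidney and 0.721 ± 0.484 TPM in retina (SD, n = 16 and n = 14). On counts, kidney minus retina was 3.10 ± 0.19 (log2, edgeR adjusted p = 7.74e-15, with 87.8% of all genes called between the organs and a median of −0.14 over all genes). On log2(TPM + 1), limma gave −0.15 ± 0.09 (adjusted p = 0.124). A retina library could reach a high Lepr TPM from few counts: R559 had 7 counts and 1.56 TPM, the highest Lepr TPM of any library, while K559, from the same animal, had 96.1 counts and 0.919 TPM. In CPM the order of the group means was KO non-diabetic and WT non-diabetic kidney, then KO diabetic and WT diabetic kidney, then the 4 retina groups at 0.248 to 0.368 CPM. Within each of these 3 steps the libraries overlapped, and between the steps they did not.

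Leprot was far more abundant than Lepr and did not follow it. KO diabetic kidneys had 36.2, 38.1, 24.3 and 43.7 CPM, against 45.4, 43.9, 44.6 and 38.1 CPM in KO non-diabetic kidneys. WT diabetic kidneys had 43.2, 42.2, 42.3 and 39.6 CPM, against 35.1, 40.0, 42.6 and 26.5 CPM in WT non-diabetic kidneys. The diabetic and non-diabetic libraries overlapped, and the lowest values in their groups, 24.3 CPM in K591 and 26.5 CPM in K861, came from the libraries with the largest mitochondrial shares; the part of that share was not tested. The diabetes difference was −0.05 ± 0.12 (edgeR, 95% confidence interval −0.30 to 0.20, adjusted p = 0.899). It was −0.28 ± 0.16 in KO kidneys (adjusted p = 0.414) and 0.18 ± 0.16 in WT kidneys (adjusted p = 0.465), with an interaction of −0.47 ± 0.23 (adjusted p = 0.189). KO minus WT was −0.24 ± 0.16 in diabetic kidneys (adjusted p = 0.285) and 0.23 ± 0.16 in non-diabetic kidneys (adjusted p = 0.997).

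In retina Leprot varied little. It ranged from 11.2 to 13.6 CPM over the 14 libraries, with group means of 12.1 ± 0.274 (KO diabetic), 12.4 ± 0.897 (KO non-diabetic), 12.02 ± 0.826 (WT diabetic) and 12.1 ± 0.681 CPM (WT non-diabetic). Diabetic minus non-diabetic was −0.02 ± 0.05 (95% confidence interval −0.13 to 0.10, adjusted p = 0.902). The other 5 differences within retina lay between −0.03 and 0.05, none called.

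Leprotl1 was not called in any kidney comparison. KO diabetic kidneys had 23.3, 24.4, 20.5 and 28.5 CPM, against 27.6, 29.0, 29.9 and 32.2 CPM in KO non-diabetic kidneys. WT diabetic kidneys had 31.1, 30.2, 26.9 and 29.4 CPM, against 31.1, 26.0, 28.0 and 20 CPM in WT non-diabetic kidneys. The groups overlapped in both genotypes, although 3 of the 4 KO diabetic libraries were below every KO non-diabetic one. The diabetes difference was −0.09 ± 0.09 (edgeR, 95% confidence interval −0.29 to 0.11, adjusted p = 0.733) over both genotypes, −0.31 ± 0.13 in KO kidneys (adjusted p = 0.334) and 0.13 ± 0.13 in WT kidneys (adjusted p = 0.530). The interaction was −0.43 ± 0.19 (adjusted p = 0.147) and KO minus WT was −0.29 ± 0.13 in diabetic kidneys (adjusted p = 0.123) and 0.15 ± 0.13 in non-diabetic ones (adjusted p = 0.997). Without K596, both the interaction (−0.53, adjusted p = 0.0399) and the diabetic KO minus WT difference (−0.35, adjusted p = 0.0447) passed the threshold.

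Leprotl1 held 35.1 to 40.4 CPM in the 14 retinas, with group means of 36.8 ± 1.16 (KO diabetic), 39.1 ± 1.11 (KO non-diabetic), 37.3 ± 1.63 (WT diabetic) and 37.5 ± 0.982 CPM (WT non-diabetic). Diabetic minus non-diabetic was −0.04 ± 0.04 (95% confidence interval −0.12 to 0.03, adjusted p = 0.541), and the 5 other differences within retina lay between −0.08 and 0.07, none called. These intervals are the narrowest of the 3 genes and exclude a change as large as that of Lepr in kidney.

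Leprot exceeded Leprotl1 in every kidney library and Leprotl1 exceeded Leprot in every retina library. In TPM, which is per transcript length, Leprot averaged 16.1 ± 4.15 in kidney and 16.5 ± 1.10 in retina, and Leprotl1 7.05 ± 1.69 in kidney and 32.5 ± 1.52 in retina (SD, n = 16 and n = 14). Within a library, Leprot stood at 1.77 to 2.62 times the TPM of Leprotl1 in kidney (median 2.36) and at 0.464 to 0.539 times in retina (median 0.507), so no library of one organ reached the range of the other. This ratio needs no scaling between libraries. Between the organs 87.8% of 23021 genes were called, and other pairs of genes were not compared in this way. The ratio was 1.87 to 2.59 in diabetic kidneys and 1.77 to 2.62 in non-diabetic kidneys, and 0.490 to 0.539 in diabetic retinas and 0.464 to 0.527 in non-diabetic retinas. On counts, kidney minus retina was 1.68 ± 0.07 for Leprot (log2, edgeR adjusted p = 1.60e-18) and −0.46 ± 0.05 for Leprotl1 (adjusted p = 4.27e-09), while on log2(TPM + 1) limma gave −0.08 and −2.09: the direction for Leprotl1 was the same on both scales and that for Leprot was not. Both genes had like effective lengths in kidney and retina, and the counts but not TPM were normalised over the libraries. The kidney minus retina difference in the effect of diabetes was −0.01 ± 0.14 for Leprot and −0.02 ± 0.11 for Leprotl1 (edgeR adjusted p = 1 each), neither called.

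Set against Leprot in the same library, Lepr was also lower in diabetic kidneys. Lepr counts were 2.73% to 5.22% of Leprot counts in diabetic kidneys and 7.58% to 12.3% in non-diabetic kidneys, with means of 3.90 ± 0.863% and 9.78 ± 1.80% (SD, n = 8 each), and the ranges did not overlap. The log2 ratio of Lepr to Leprot TPM, with 0.1 TPM added to each, differed by −1.12 (−1.01 in KO and −1.24 in WT kidneys; exact permutation test within genotypes, two-sided p = 0.000408, the smallest that 4900 splits can give, and 0.000816 adjusted over the 2 organs). With 1 TPM added in place of 0.1 the difference was −0.376 (exact p = 0.0641). In retina Lepr counts were 1.01% to 4.65% of Leprot counts and the difference was −0.39 (−1.34 in KO and 0.56 in WT retinas; exact p = 0.475, 1225 splits).

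The genes whose log2 CPM followed the members most closely over the libraries of an organ were found by Pearson correlation, as a description. In the 16 kidneys, Lepr went with Serinc2 (r = 0.934), Plau (0.926), which encodes urokinase, and Mpv17l (0.924). They were picked for following Lepr over these same libraries, so their values are a description and no test of diabetes is given for them. Serinc2 held 10.95 to 17.7 CPM in diabetic kidneys and 17.8 to 28.3 CPM in non-diabetic kidneys. Leprot went with Crim1 (0.922), Kctd12 (0.915) and Slc25a17 (0.912), and Leprotl1 with Nf2 (0.957), the merlin tumour suppressor, Rab28 (0.947) and Tank (0.945). By rank (Spearman) the correlation was 0.785, 0.777 and 0.591 for Crim1, Kctd12 and Slc25a17, and 0.965, 0.906 and 0.927 for Nf2, Rab28 and Tank. These 6 were picked in the same way, so no test of diabetes is given for them either. Leaving out 1 library at a time, a choice made after the values were seen, r for these 6 was as low as 0.828 and for the 3 genes nearest to Lepr at least 0.913. In the 14 retinas the closest genes were Trank1 (0.815), Ddx49 (0.803) and Eif1ad (0.791) for Lepr, Bin2 (0.844), Dab2 (0.828) and Ccs (0.812) for Leprot, and Coq4 (0.854), Mblac1 (0.815) and Zfp691 (0.808) for Leprotl1. They too were picked over these same libraries, from among 20979 genes, and no test of diabetes is given for them. Lepr had only 4.00 to 15.4 counts per retina library, which limits its correlations.

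Among genes listed for leptin signalling, Socs1, Socs2 and Cish fell and Foxo1 rose in diabetic kidneys. Signalling by the receptor itself was not measured. The kinase gene Jak2 (−0.35 ± 0.18), Stat3 (0.22 ± 0.11) and Socs3 (−0.34 ± 0.19), the STAT3-induced inhibitor of the leptin receptor, were not called (edgeR adjusted p = 0.345, 0.341 and 0.404; named after their values were seen). Of 31 genes of leptin signalling, 1 rose and 3 fell over both genotypes, with a median log2 difference of 0.00 (−0.01 over all genes), beside 3.69% of all genes called. Socs2, an inhibitor of JAK2 and growth hormone signalling, had 40.3, 13.6, 14.9 and 8.61 CPM in KO diabetic kidneys against 123, 67.5, 23.2 and 24.7 CPM in KO non-diabetic kidneys, and 9.98, 9.66, 11.2 and 9.23 CPM in WT diabetic kidneys against 26.2, 67.0, 92.5 and 20.8 CPM in WT non-diabetic kidneys. Socs2 was tightly low in WT diabetic kidneys and spread widely elsewhere, and the KO groups overlapped through K587 (diabetic, female, 40.3 CPM). In non-diabetic kidneys the females K559, K560, K819 and K834 had 67.0 to 123 CPM. The non-diabetic males K582, K584, K812 and K861 had 20.8 to 26.2 CPM. The part of sex in this spread was not tested. The diabetes difference of Socs2 was −2.01 ± 0.42 (edgeR adjusted p = 0.0144). Cish, a STAT5-induced inhibitor of the same family, fell with a difference of −1.23 ± 0.26 (20.3 ± 5.71 CPM in diabetic and 47.0 ± 17.8 CPM in non-diabetic kidneys, adjusted p = 0.0144), and its difference was −1.25 in KO and −1.22 in WT kidneys, neither called alone. The WT non-diabetic K812 had 15.4 CPM of Cish, below every WT diabetic kidney (17.2 to 27.2 CPM). The KO groups did not overlap (13.0 to 29.2 CPM in diabetic and 30.7 to 59.7 CPM in non-diabetic kidneys). Socs1 fell with a difference of −1.16 ± 0.23 (0.644 ± 0.297 CPM in diabetic and 1.34 ± 0.395 CPM in non-diabetic kidneys, adjusted p = 0.0123). It had only 6 to 9 counts per WT diabetic kidney. Its KO groups overlapped (0.594 to 1.14 CPM in diabetic and 0.803 to 2.06 CPM in non-diabetic kidneys), and its WT groups did not.

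The transcript of Foxo1, a transcription factor that insulin and leptin signals restrain through AKT, rose. It had 83.2, 73.9, 71.2 and 72.8 CPM in KO diabetic kidneys against 64.7, 62.1, 58.5 and 52.5 CPM in KO non-diabetic kidneys, and 112, 103, 85.9 and 88.1 CPM in WT diabetic kidneys against 54.4, 52.7, 56.0 and 69.3 CPM in WT non-diabetic kidneys. All diabetic kidneys lay above all non-diabetic ones, as for 0.286% of all genes. The difference was 0.52 ± 0.09 (edgeR adjusted p = 0.00374), with 0.71 ± 0.12 in WT kidneys (adjusted p = 0.00449). In WT kidneys alone, Ptpn1, the phosphatase PTP1B that dephosphorylates JAK2, rose by 0.71 ± 0.15 (adjusted p = 0.0127): 56.5 to 65.4 CPM in WT diabetic and 27.7 to 45.5 CPM in WT non-diabetic kidneys, against 32.1 to 46.7 CPM in KO diabetic and 34.7 to 39.2 CPM in KO non-diabetic kidneys. Its interaction was −0.68 ± 0.21 (adjusted p = 0.0916), not called. Socs1 (−1.69 ± 0.34) and Socs2 (−2.39 ± 0.60, not called without K597, K645, K877, K819 or K834) also fell in WT kidneys, where 7.29% of all genes were called. No gene of the list was called in KO kidneys by edgeR, where only 0.0770% of all genes were called. None of these calls for diabetes passed with the adipose covariate. With it the difference was −1.29 for Cish (−1.23 without it), −0.89 for Socs1 (−1.16), 0.48 for Foxo1 (0.52) and −1.24 for Socs2 (−2.01) over both genotypes. In WT kidneys it was 0.73 for Ptpn1 (0.71 without it) and −1.28 for Socs2 (−2.39). The share of all genes called with the covariate is not given here. The call of Cish also ended without K861 and K591; the part of fat or of library quality in them was not tested.

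**Figure D5:**
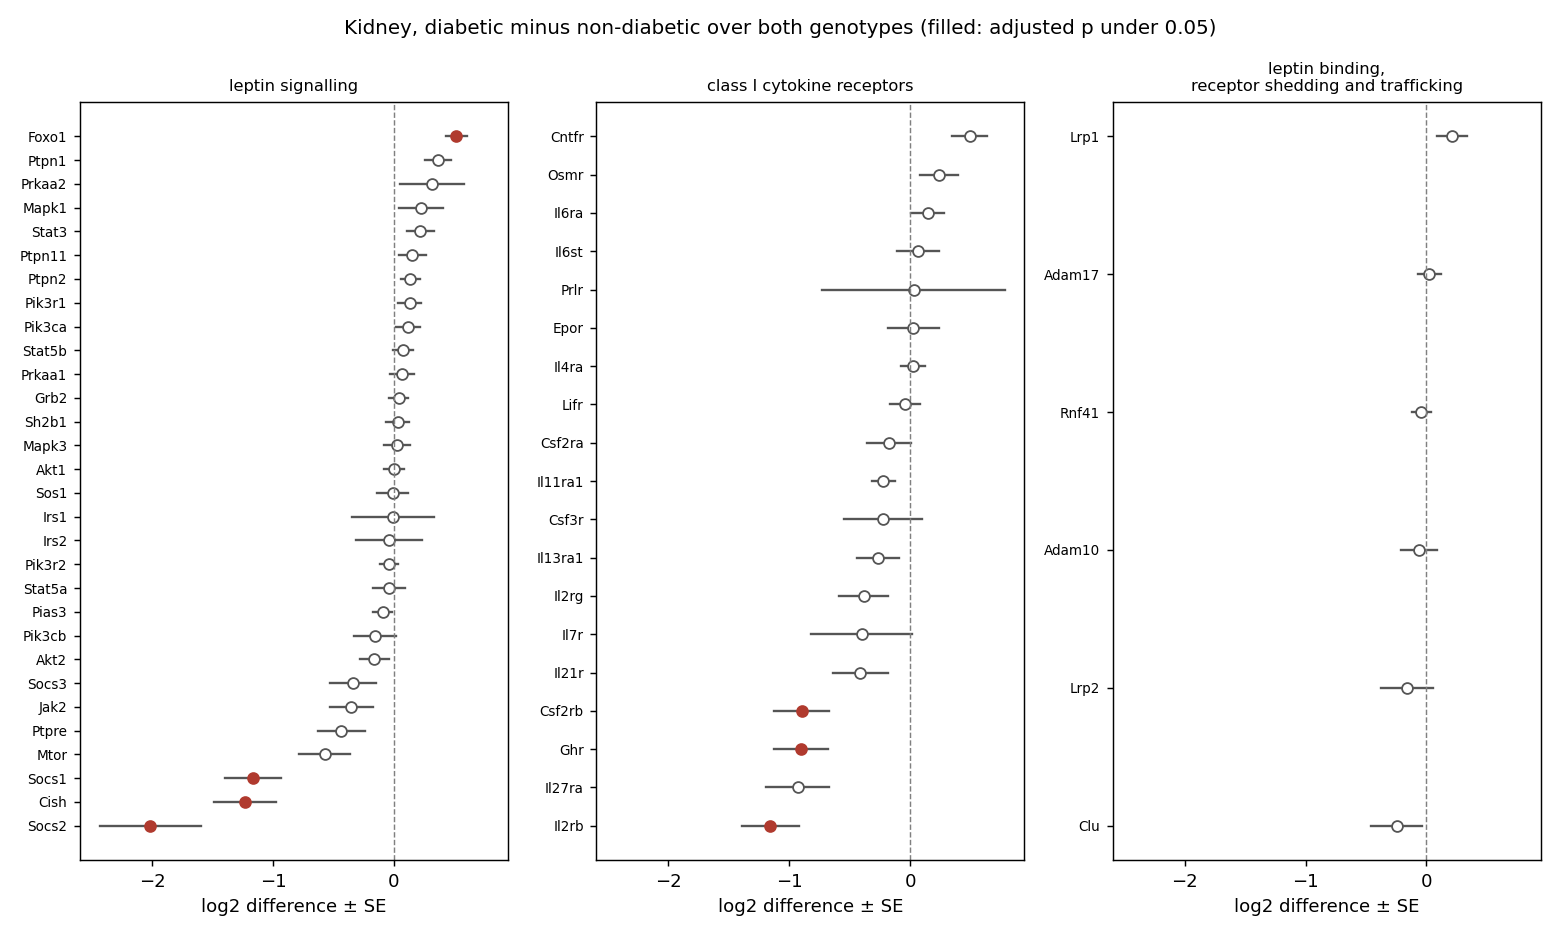
Log2 difference between diabetic and non-diabetic kidneys, over both genotypes, with its standard error, for genes of leptin signalling (left, Lep left out), class I cytokine receptors (middle) and leptin binding, receptor shedding and trafficking (right); filled points passed an adjusted p of 0.05. Foxo1 is the only filled point above 0 and Socs2, Cish, Socs1, Il2rb, Ghr and Csf2rb are the filled points below it.

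Between KO and WT diabetic kidneys 2 of 31 genes of this list were higher in KO and 4 lower, a share near the 19.7% of all genes called. Socs3 (1.08 ± 0.27) and Socs1 (1.05 ± 0.35) were higher in KO diabetic kidneys than in WT diabetic kidneys. Ptpn1 (−0.67 ± 0.15), Ptpn11 (−0.53 ± 0.16), Foxo1 (−0.37 ± 0.12) and Prkaa2 (−1.13 ± 0.38) were lower, with adjusted p-values of 0.0133 to 0.0486 in edgeR. Socs3, Ptpn11 and Prkaa2 are named here after their values were seen. In the non-diabetic state none of the 31 was called. Of 6 genes for leptin binding, receptor shedding and trafficking (Adam10, Adam17, Rnf41, Clu, Lrp1 and Lrp2), none was called for diabetes in kidney or retina, and Lrp1 alone was higher in KO diabetic than in WT diabetic kidneys (0.59 ± 0.18, adjusted p = 0.0339; named after its value was seen).

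Some other class I cytokine receptors fell in diabetic kidneys as well. Of 23 other receptors of the class 19 were tested in kidney, and 3 fell in diabetic kidneys (median −0.22 over the 19, −0.01 over all genes), beside 3.69% of all genes called. Ghr, the growth hormone receptor and the most abundant of the called ones, had 459, 178, 354 and 564 CPM in KO diabetic kidneys against 685, 502, 831 and 1051 CPM in KO non-diabetic kidneys, and 426, 471, 285 and 329 CPM in WT diabetic kidneys against 652, 756, 763 and 429 CPM in WT non-diabetic kidneys. It overlapped between the states and differed by −0.90 ± 0.22 (edgeR adjusted p = 0.0323), a call that ended without 9 of the 16 libraries in turn (−1.01 to −0.78). Il2rb, a chain of the interleukin-2 and interleukin-15 receptors of lymphocytes, fell with a difference of −1.16 ± 0.24 (adjusted p = 0.0141) and Csf2rb, the shared beta chain for GM-CSF, with −0.90 ± 0.23 (adjusted p = 0.0408, not called without 12 of the 16 libraries in turn; −0.99 to −0.78). In WT kidneys Il2rb (−1.84), Csf2rb (−1.60), Il27ra (−1.78) and Il2rg (−1.10) fell and Cntfr, the receptor for ciliary neurotrophic factor, rose (0.72), beside 7.29% of all genes called. Some of these rest on few counts: WT diabetic kidneys had 4 to 7 for Il27ra, 3 to 13 for Il2rb and 8 to 17 for Csf2rb. Il2rg had 23 to 52 counts there. Without 1 library, the WT calls ended for Il27ra (K597), Il2rg (any of 6 libraries) and Cntfr (any of 11). With the adipose covariate no receptor call for diabetes passed: over both genotypes Il2rb was at −1.13 (adjusted p = 0.116), Ghr at −0.85 (0.244) and Csf2rb at −0.45 (0.537), and Csf2rb was at −0.90 in WT kidneys. The calls of Ghr (−0.78) and Csf2rb (−0.82) over both genotypes also ended with the mitochondrial covariate. Il2rb, Csf2rb, Il27ra and Il2rg are receptor chains of immune cells, and in WT kidneys 4 of 7 macrophage markers fell as well; the part of immune cells was not tested. None of the 19 was called for diabetes in KO kidneys, where only 0.0770% of all genes were called. Between KO and WT diabetic kidneys 7 of the 19 were higher in KO and none lower (19.7% of all genes called). All 7 macrophage markers were higher in KO there too (115 to 176 CPM summed in KO diabetic and 39.6 to 62.5 CPM in WT diabetic kidneys).

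In retina, where Lepr was barely detected, the leptin signalling list held a single gene called for diabetes, 1 of 30 tested, beside 1.43% of all genes called over both genotypes and 2.48% in WT retinas. Irs2, an adaptor of insulin and leptin signalling, had 32.2 to 33.2 CPM in KO diabetic and 32.3 to 34.3 CPM in KO non-diabetic retinas, and 36.7 to 40.0 CPM in WT diabetic and 29.97 to 31.7 CPM in WT non-diabetic retinas. It rose by 0.33 ± 0.05 in WT retinas (edgeR adjusted p = 0.00853) and by 0.17 ± 0.03 over both genotypes (adjusted p = 0.0277), and KO minus WT in diabetic retinas was −0.23 ± 0.05 (adjusted p = 0.0259). The interaction was −0.33 ± 0.07 (adjusted p = 0.102), not called. The WT call ended without R819 (adjusted p = 0.0501), with the lens marker level as a covariate, in a fit of WT retinas alone, and without R915, R942 and R954, WT diabetic retinas. The call over both genotypes ended without any of 10 libraries and without those 3 together. Of the other 29 genes of leptin signalling tested, none was called for diabetes, and none of 18 receptors. All 9 tested lens markers fell in WT diabetic retinas (31.8 to 85.9 CPM summed in WT diabetic and 61.4 to 1017 CPM in WT non-diabetic retinas); the part of lens RNA was not tested. Over both genotypes, Mueller glia (1 of 6 lower) had the only called marker in retina among the 9 marker lists.

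Lep, the leptin gene, had few counts in most kidneys and almost none in retina. It had 0.479, 13.5, 0 and 0 CPM in KO diabetic kidneys against 1.301, 0, 0.804 and 0.0672 CPM in KO non-diabetic kidneys, and 0.0620, 6.25, 1.48 and 0 CPM in WT diabetic kidneys against 0.411, 0.448, 0 and 0.451 CPM in WT non-diabetic kidneys. The difference of 2.57 ± 1.17 was not called (edgeR adjusted p = 0.278), and it rested on K588 and K645, which also had the largest adipose marker sums among diabetic kidneys (104 and 114 CPM). Lep did not follow these sums over all kidneys. The WT non-diabetic K812, K834 and K819 had sums of 1842, 558 and 534 CPM with Lep at 0.411, 0 and 0.448 CPM. Left out in turn, the libraries gave 0.42 to 3.07. In retina Lep had 1 count in R812 and 0 in the other 13 libraries and was not tested.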

How the data were processed

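Sequencing libraries were made from Trizol-extracted RNA of frozen kidneys and retinas with BGISEQ-500 methods, per the labels' protocols. The submitters' processing notes name Trim Galore 0.6.4, kallisto (with the version given as 0.4.6) and the build GRCm38.p6. The authors deposited expected counts per gene, which divide reads shared by transcripts and were rounded here before testing. The authors also deposited TPM per gene, which kallisto scales by effective transcript length. Names, positions and sequences came from GENCODE M21 (54487 of 55385 identifiers matched with their version, 241 not at all).

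Tests used edgeR 4.0.16 in R 4.3.3 (trimmed mean of M values, filterByExpr, quasi-likelihood F test, Benjamini-Hochberg adjustment over all genes of a fit, call at an adjusted p under 0.05), with 1 fit of the 4 groups per organ (18177 genes in kidney, 20979 in retina) and 1 joint fit (23021). limma 3.58.1 on log2(TPM + 1) and DESeq2 1.42.0 were alternatives, besides other scaling and filters, covariates and left-out libraries. Ratios were tested by exact permutation (scipy 1.17.1). The fits were tested on simulated counts. The median biological coefficient of variation was 0.235 in kidney, 0.106 in retina and 0.184 in the joint fit.

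The members and all gene lists were chosen with earlier results of these data known. Named besides the members were Camk2d, Lep, the genes of the 3 leptin and receptor lists called for diabetes and the 3 genes of highest correlation per member and organ. The 9 animals with both organs carry the same number in both sample names, which pairs their libraries; the deviations of paired libraries from their group means correlated at 0.011 to 0.07 over genes (median 0.048).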

Additional observations from a re-analysis of the deposited data

How the results depend on the processing

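Values are log2 differences in the direction given in the report, and the cause of a change was not tested unless said. The fall of Lepr in diabetic kidneys kept its call under other scaling, no filter, DESeq2, the sex and mitochondrial covariates and without K861 and K591. It was no longer called on log2(TPM + 1) with limma (−0.458 averaged, −0.389 in WT), where adding 1 TPM shrinks a gene this low, or with the adipose covariate (−1.16 and −0.889). In KO kidneys DESeq2 (−1.53) and the sex covariate (−1.51) made it a call. The Lepr to Leprot ratio with 1 TPM added was −0.376 and not called.

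No other change of direction concerned a call, apart from the organ levels. For Lepr in kidney, KO minus WT in the diabetic state was −0.0176 with no filter and −0.100 with limma, and the interaction 0.120 with the mitochondrial covariate and 0.0135 without K861 and K591. Leprot in kidney was 0.0454 (mitochondrial) and 0.136 (adipose covariate) for diabetes and 0.00482 (mitochondrial) for KO minus WT in the diabetic state, and Leprotl1 0.0394 (adipose) for diabetes. In retina limma gave Lepr 0.223 (diabetes, WT), 0.802 (KO minus WT, non-diabetic), 0.0240 (KO minus WT, diabetic) and −0.778 (interaction), Leprot 0.0593, 0.0556 and 0.0629 (diabetes averaged, WT, KO) and 0.00729 (interaction), and Leprotl1 0.0331, 0.0528 and 0.0135 (diabetes averaged, WT, KO) and 0.04999 (KO minus WT, diabetic). The lens covariate gave Lepr 0.446 (diabetes, KO) and 0.575 (KO minus WT, diabetic), Leprot 0.0522 (diabetes, WT) and −0.0432 (KO minus WT, diabetic), and Leprotl1 0.0561 (KO minus WT, diabetic) and 0.0261 (interaction). Without R915, R942 and R954, Lepr was 0.0207 (diabetes averaged), 0.0552 (WT) and −0.0690 (interaction), Leprot 0.0657 (interaction), and Leprotl1 0.0809 (KO minus WT, diabetic) and 0.00797 (interaction). The sex covariate gave 0.0285 for Lepr (diabetes, KO) and 0.00213 for Leprot (diabetes, WT), and a fit of only the groups compared 0.000136 for Leprotl1 (KO minus WT, diabetic). Between the organs limma gave −0.154 for Lepr and −0.0829 for Leprot, and no filter gave 0.00880 for the organ difference in the effect of diabetes on Leprot.

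Leaving out 1 library at a time gave Lepr in kidney −1.41 to −0.963 (WT), −1.71 to −1.38 (KO) and −0.150 to 0.184 (KO minus WT, diabetic), Leprot in kidney −0.118 to 0.0134 (averaged), and Leprotl1 in kidney −0.353 to −0.214 (KO minus WT, diabetic) and −0.538 to −0.330 (interaction). In retina it gave Lepr −0.215 to 0.201 (KO) and −0.258 to 0.187 (KO minus WT, diabetic), Leprot −0.0398 to 0.00400 (averaged), −0.0496 to 0.0381 (WT), −0.0690 to 0.0120 (KO), −0.00661 to 0.0691 (KO minus WT, diabetic) and −0.0725 to 0.0196 (interaction), and Leprotl1 −0.0330 to 0.0181 (WT) and −0.0324 to 0.0189 (KO minus WT, diabetic). The organ difference in the effect of diabetes was −0.0654 to 0.0647 for Leprot and −0.0703 to 0.0278 for Leprotl1. Lep in KO kidneys ran from −1.67 without K588 to 3.61.

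With the animal as replicate block, the organ difference in level was 3.13 for Lepr, 1.66 for Leprot and −0.51 for Leprotl1, and that in the effect of diabetes −1.39, −0.23 and −0.21; no call of a member changed, while genes called for the effect of diabetes between organs numbered 31, against 314 without the block. A fit of only the groups compared gave no Lepr value in some retina comparisons, where it failed the filter. Counts of 4.00 to 15.4 per library limit every Lepr value in retina.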
